A study of Mus musculus with 66 samples.

Results

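Messenger RNA of 7 genes of the neurogenic transcription programme was followed through sorted progenitors of the ventral spinal cord. The genes were Neurog1, Neurog2, Neurog3, Neurod1, Neurod4, Gadd45g and Insm1. They were taken by symbol from a deposited table of 24410 genes, each symbol matched 1 entry, and all 7 passed the filter on low values, which kept 15714 genes. The progenitors were made from mouse embryonic stem cells with bFGF at 10 ng/ml, to which CHIR99021, an inhibitor of GSK3, was added at 5 µM on day 2. On day 3 retinoic acid (100 nM) and SAG, which activates Smoothened (10 nM), were given, and after day 5 only SAG was kept. Cells were fixed in glyoxal, stained and sorted into populations of 10000 to 15000 cells by domain (pM, p2 or p1), and by a gate labelled NFIAp or NFIAn. The labels name the genotypes only as MUT and WT, and do not name the mutated gene, so no check of it could be made.

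The 29 MUT libraries were all NFIAn, with 3 per domain at D5 and D7. At D9 there were 2 MUT libraries of pM, 1 of p2 and 2 of p1, and at D11 there were 2 per domain. The 37 WT libraries at D5 (2 of pM, 3 of p2 and 3 of p1) and D7 (3 per domain) were NFIAn. At D9 the WT cells were sorted as NFIAp (3 of pM and 3 of p2) and as NFIAn (2 of pM, 3 of p2 and 3 of p1), and at D11 all WT libraries were NFIAp, with 2 per domain. MUT and WT at D11 therefore differed in gate as well as genotype. The labels do not state whether replicates came from separate cultures, and the spread between libraries that the p-values rest on may be technical.

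Neurogenins are basic helix-loop-helix (bHLH) transcription factors that commit a neural progenitor to become a neuron. They pair with E proteins, bind the E-box CANNTG, and switch on a cascade that includes Neurod1 and Neurod4, bHLH factors of the differentiating neuron, Insm1, a zinc-finger factor of delaminating and intermediate progenitors, and Gadd45g, a stress-response protein expressed in newly committed neuronal precursors. In the ventral neural tube pM gives motor neurons, p2 gives V2 interneurons and p1 gives V1 interneurons, and Olig2 in pM is known to sustain Neurog2 there.

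Reads recovered per library ranged from 20.29 to 30.83 M apart from the second replicate of MUT D5 p2, which had 8.74 M. Normalised totals were 26.59 to 40.23 M for 18 libraries, namely those numbered 3 at D7 and those numbered 2 or 3 at D9, while 48 libraries had 17.85 to 25.5 M. The sorted WT domains carried their defining genes. The summed level of Olig2, Olig1 and Nkx6-1 was 1719 to 9239 normalised counts in WT pM libraries and at most 695 in WT p2, and that of Dbx1, Dbx2 and Prdm12 was 5001 to 10736 in WT p1 and at most 2126 in the other WT libraries. The sum for the p2 genes Foxn4, Vsx1 and Nkx6-1 was 736 to 3264 in WT p2 from D7 onward, against at most 474 in WT pM, but at D5 it was 405 to 439 in p2 and 438 to 510 in pM, so it did not set those D5 groups apart. These are bulk samples, in which fewer cells of a type and less RNA per cell cannot be told apart.

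The promoters of Neurog1, Neurog2, Neurog3, Neurod4 and Gadd45g are shown because each has differences between domains or days described here. Any E-box, the motif bound by proneural factors, is in capitals. Neurod1 and Insm1 also have such differences. The Neurod1 window is described below without its sequence, and no promoter was found for Insm1. Each promoter shown runs 5′ to 3′ from 250 bases before to 50 after the RefSeq start, for 300 bases on GRCm38.p6. The regions are chr13:56252131-56252430 on the minus strand for Neurog1, chr3:127632886-127633185 on the plus strand for Neurog2, chr10:62132840-62133139 on the plus strand for Neurog3, chr10:130280089-130280388 on the minus strand for the first of the Neurod4 starts listed, and chr13:51846425-51846724 on the plus strand for Gadd45g.
Neurog1: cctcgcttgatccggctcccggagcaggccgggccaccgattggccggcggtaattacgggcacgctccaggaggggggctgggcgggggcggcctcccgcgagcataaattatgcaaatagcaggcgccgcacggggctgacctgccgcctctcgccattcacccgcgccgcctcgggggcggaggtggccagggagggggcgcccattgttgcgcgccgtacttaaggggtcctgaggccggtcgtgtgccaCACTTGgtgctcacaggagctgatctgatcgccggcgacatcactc
Neurog2: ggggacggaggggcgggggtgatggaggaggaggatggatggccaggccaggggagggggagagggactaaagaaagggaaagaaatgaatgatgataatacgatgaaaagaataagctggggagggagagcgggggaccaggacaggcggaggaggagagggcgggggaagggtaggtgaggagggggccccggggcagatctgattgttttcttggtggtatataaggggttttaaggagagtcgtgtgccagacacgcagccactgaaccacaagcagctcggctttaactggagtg
Neurog3: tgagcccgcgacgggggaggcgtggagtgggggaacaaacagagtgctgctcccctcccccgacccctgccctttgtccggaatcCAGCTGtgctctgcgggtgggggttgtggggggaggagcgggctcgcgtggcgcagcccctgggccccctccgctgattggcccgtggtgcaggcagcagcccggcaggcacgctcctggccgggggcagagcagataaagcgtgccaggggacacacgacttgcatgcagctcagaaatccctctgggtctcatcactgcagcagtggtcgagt
Neurod4: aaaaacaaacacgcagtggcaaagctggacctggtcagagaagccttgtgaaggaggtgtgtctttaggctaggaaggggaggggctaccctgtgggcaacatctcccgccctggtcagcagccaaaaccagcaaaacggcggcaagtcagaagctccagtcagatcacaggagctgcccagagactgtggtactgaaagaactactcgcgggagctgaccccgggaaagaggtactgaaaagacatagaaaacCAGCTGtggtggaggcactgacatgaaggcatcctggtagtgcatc
Gadd45g: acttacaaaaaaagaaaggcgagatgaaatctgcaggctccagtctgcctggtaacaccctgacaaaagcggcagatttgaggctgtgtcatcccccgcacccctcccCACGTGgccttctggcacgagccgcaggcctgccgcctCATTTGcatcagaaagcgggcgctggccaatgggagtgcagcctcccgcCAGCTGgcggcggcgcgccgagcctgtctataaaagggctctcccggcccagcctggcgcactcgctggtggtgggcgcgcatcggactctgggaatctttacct
The letters CANNTG read the same on both strands and were counted once per position. The Neurog1 window held 1 match, the Neurog3 window 1, the first Neurod4 window 1, the Gadd45g window 3 and the Neurog2 window 0. The Neurog3, Neurod4 and Gadd45g windows each had the form CAGCTG among their matches. Of 32544 mouse promoter windows of this length, 72.3% held at least 1 such match and 17.6% held at least 3. CAGCTG, which is contained in CANNTG, was in 16.4% of windows. The Neurod1 window, chr2:79456587-79456886 on the minus strand, held 1 match and the second Neurod4 window held 0. A match is a description of letters and not a binding site.

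In the annotation (GENCODE M21, GRCm38), Neurog1 is a single-exon gene at chr13:56250478-56252163 and Neurog2 lies at chr3:127633135-127635631. Neurog3 lies at chr10:62133090-62134763, where exons of Fam241b, a symbol absent from the deposited table, overlap on the opposite strand. Neurog3 counts could include Fam241b reads if the counting ignored strand, which was not checked. Neurod1 lies at chr2:79452521-79456751, where Cerkl shares exonic sequence on the same strand, so reads of Neurod1 could be split or shared. Neurod4 lies at chr10:130268152-130280240, Gadd45g at chr13:51846678-51848468 and Insm1 at chr2:146221921-146225020. Per exonic kilobase, the median level over all 66 libraries was 9040 normalised counts for Gadd45g, 919 for Neurog2, 725 for Neurod4, 284 for Neurog1, 177 for Neurod1, 77.7 for Neurog3 and 57.8 for Insm1.

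Neurog2 was the main neurogenin of pM on every day. In WT pM it had 4812 and 5684 normalised counts at D5, 3680, 4347 and 4609 at D7, 4025, 4765 and 6421 in NFIAp cells at D9, 6668 and 6856 in NFIAn cells at D9, and 4288 and 5906 at D11. The 2 NFIAn pM libraries at D9 lay above every other WT library, and no WT day step of Neurog2 in pM passed the test. In WT p2 Neurog2 was lower, at 823, 1172 and 1314 normalised counts at D5, 923, 1946 and 1946 at D7, 910, 934 and 1152 in NFIAp cells at D9, 1388, 2037 and 2403 in NFIAn cells at D9, and 1544 and 2683 at D11. In WT p1 it had 229, 293 and 622 at D5, 534, 1000 and 1300 at D7, 2948, 3274 and 6021 at D9, and 4591 and 5504 at D11. The p1 libraries thus started below those of pM and p2, and by D11 lay within the range of pM.

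Neurog1 ran the other way between pM and p2. WT p2 had 195, 209 and 280 normalised counts at D5, 501, 763 and 1447 at D7, 444, 535 and 782 in NFIAp cells at D9, 1507, 1927 and 2469 in NFIAn cells at D9, and 711 and 758 at D11. WT pM had 74.1 and 107 at D5, 255, 372 and 386 at D7, 190, 265 and 455 in NFIAp cells at D9, 456 and 646 in NFIAn cells at D9, and 112 and 265 at D11. WT p1 had 33.5, 48.9 and 59.4 at D5, 408, 699 and 781 at D7, 1132, 1498 and 2016 at D9, and 801 and 1585 at D11. Every pM library was below every p2 library at D5, D7 and D11 and in NFIAn cells at D9. In NFIAp cells at D9 the highest pM library (455) exceeded the lowest p2 library (444). The groups hold 2 or 3 libraries, and the share of all genes so separated is not given here. Limma called Neurog1 lower in pM than p2 only in NFIAn cells at D9 and at D11.

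Neurog3, the neurogenin best known from the endocrine pancreas, was low at D5 in every domain and, in WT, had its highest mean in p2 at D11. WT p2 had 12.9, 19.0 and 22.9 normalised counts at D5, 91.2, 114 and 147 at D7, 267, 411 and 492 in NFIAp cells at D9, 408, 442 and 459 in NFIAn cells at D9, and 812 and 1055 at D11. WT pM had 8.55 and 27.1 at D5, 44.5, 69.0 and 132 at D7, 128, 209 and 319 in NFIAp cells at D9, 207 and 308 in NFIAn cells at D9, and 232 and 305 at D11. WT p1 had 24.9, 25.4 and 41.8 at D5, 123, 199 and 263 at D7, 247, 276 and 621 at D9, and 251 and 547 at D11. Both p2 libraries at D11 lay above every other WT library, but limma called no difference of Neurog3 between WT domains at D11. In MUT at D11 the order was another, with means of 708 in p1, 447 in pM and 320 in p2 (n = 2 each).

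**Figure D1:**
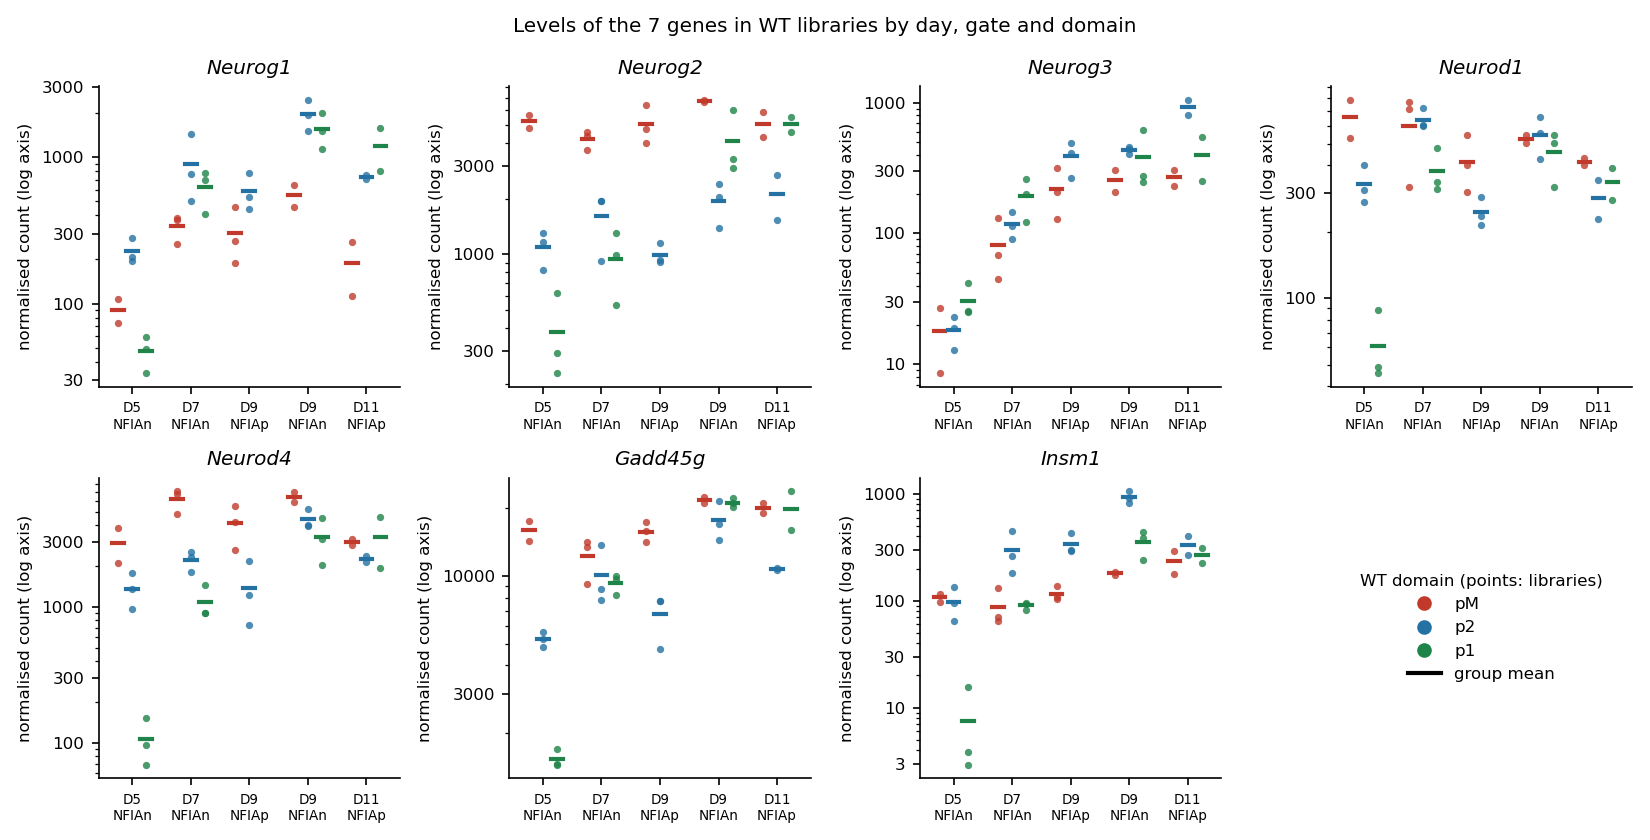
Normalised counts of the 7 genes in each WT library on a log axis, by day and NFIA gate, with pM, p2 and p1 in separate colours; points are libraries and bars are group means. Neurog2 in pM stays between 3680 and 6856 in every library, and the lowest group mean is that of D5 p1 for every gene but Neurog3, for which it is D5 pM.

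Set as shares of the summed neurogenin level per exonic kilobase, the 3 genes were mixed differently by domain and day. In WT pM Neurog2 made up 97.4% at D5 and 88.3% at D7, then 87.5% in NFIAp and 86.3% in NFIAn cells at D9 and 89.5% at D11, while Neurog1 never exceeded 10.9% in a library. In WT p2 the Neurog2 share was 76.5% at D5 and 54.5% at D7, then 44.1% in NFIAp and 37.7% in NFIAn cells at D9 and 48.0% at D11. In NFIAn p2 cells at D9 Neurog1 held 50.6% ± 4.97 (SD, n = 3), with library shares of 46.0% to 55.8%, above each Neurog2 share there (34.8% to 43.4%). The Neurog3 share of p2 was 1.75% at D5, 6.31% at D7, 22.3% in NFIAp and 11.7% in NFIAn cells at D9, and 28.9% at D11, where both libraries gave Neurog3 a larger share (27.9% and 29.8%) than Neurog1 (18.7% and 27.6%). In WT p1 the Neurog2 share was 76.6% at D5, 45.8% at D7, 61.1% at D9 and 70.9% at D11, and the Neurog1 share was 13.9%, 41.3%, 31.5% and 21.8% on the same days. The summed level of the 3 genes per exonic kilobase was 217.6, 914, 2979 and 3212 on those days in p1, and between 2141 and 3517 in the 5 WT pM groups.

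**Figure D2:**
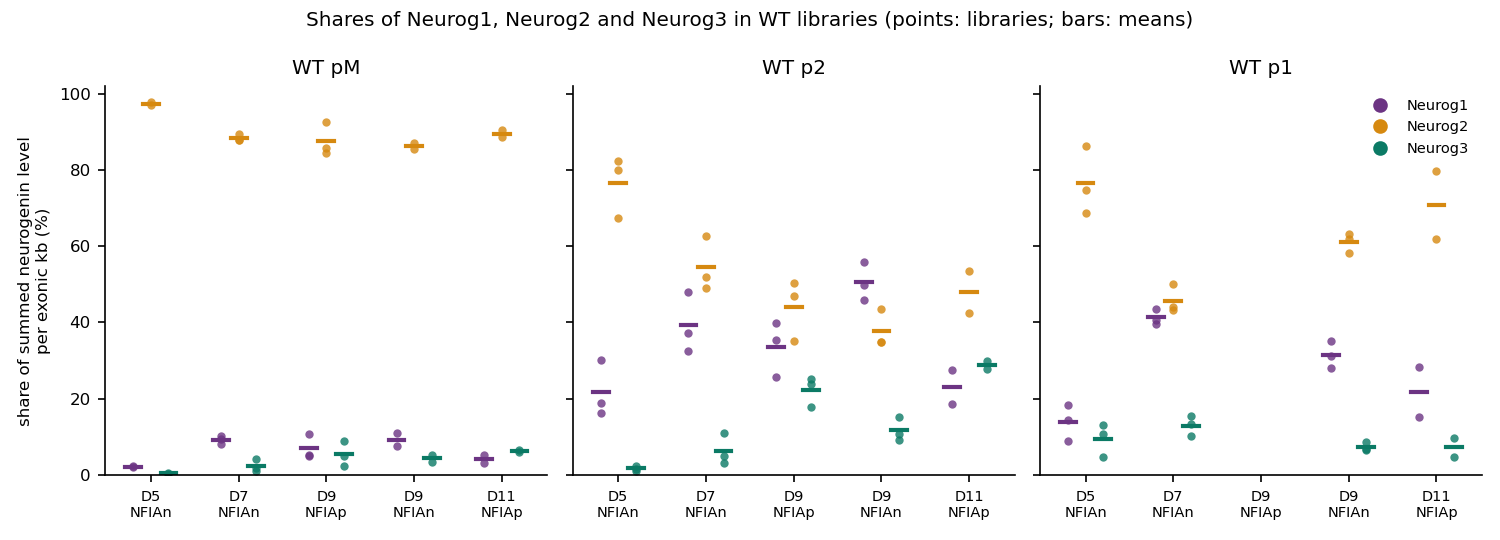
Percent share of Neurog1, Neurog2 and Neurog3 in their summed level per exonic kilobase, in WT pM, p2 and p1 libraries by day and gate; points are libraries and bars are means. Neurog2 holds 84.4% or more in every pM library, while in p2 its mean lies below that of Neurog1 in NFIAn cells at D9.

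The log2 ratio of Neurog1 to Neurog2 gave the contrast of p2 with pM in 1 value per library. Its mean at D5 was -2.26 in WT p2 and -5.86 in WT pM, and at D7 it was -0.89 in p2 and -3.65 in pM. At D9 it was -0.80 in p2 and -4.13 in pM among NFIAp cells, and 0.03 in p2 and -3.64 in pM among NFIAn cells, and at D11 it was -1.47 in p2 and -4.86 in pM. The libraries did not overlap in any of these 5 day and gate strata. The p2 minus pM difference averaged 3.35 over the strata (14 p2 and 12 pM libraries), with a two-sided exact permutation p of 4.2e-06 over 240000 relabellings within strata, the smallest p that these can give. Leaving out any 1 library gave 3.26 to 3.44. The relabelling takes libraries as independent. With same-numbered p2 and pM libraries set as 12 pairs, an exact sign-flip test gave a two-sided p of 0.000488. That is the smallest p this test can give. It takes pairs as independent, although some D9 pairs of the NFIAp and NFIAn gates share a replicate number.

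Between D7 and D5 the 7 genes had most calls in p1. There all 7 were called higher at D7 in WT (limma, Benjamini-Hochberg adjusted p below 0.05), where 3.4% of all tested genes were called higher. The differences, in log2 units with SE, were 3.69 ± 0.40 for Neurog1, 2.60 ± 0.60 for Neurog3, 2.64 ± 0.34 for Neurod1, 3.38 ± 0.36 for Neurod4, 2.60 ± 0.25 for Gadd45g and 3.74 ± 0.49 for Insm1 (n = 3 each), with no overlap between days (so for 9.53% of all genes in this direction) and limma adjusted p of 0.0038 or less. Neurog2 rose by 1.35 ± 0.34 with a limma adjusted p of 0.011, but its D7 and D5 libraries overlapped, and its adjusted p became 0.0612 without WT D5 p1 replicate 1, 0.125 without WT D5 p1 replicate 2 and 0.108 without WT D7 p1 replicate 2. Neurod4 shows the size of the p1 step, with 894, 901 and 1443 normalised counts at D7 against 68.9, 96.9 and 151 at D5. Insm1 had 81.6, 94.0 and 95.5 at D7 against 2.93, 3.83 and 15.8 at D5, and Gadd45g had 8217, 9683 and 10026 at D7 against 1452, 1459 and 1703 at D5.

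In WT p2, 3 of the 7 were called between D7 and D5, where 3.6% of genes were called higher, and 4 by edgeR and by DESeq2. The fourth was Insm1 (1.55 ± 0.49, limma adjusted p = 0.051, edgeR 0.0285, DESeq2 0.00463 and 0.015 with a pseudocount of 8). Neurog1 was higher at D7 by 1.86 ± 0.40 (limma adjusted p = 0.002) and Neurog3 by 2.63 ± 0.60 (limma adjusted p = 0.0038). Gadd45g was higher by 0.90 ± 0.25 (limma adjusted p = 0.02), with 7799, 8731 and 13759 normalised counts at D7 against 4828, 5234 and 5652 at D5, and its adjusted p became 0.177 without WT D7 p2 replicate 1, 0.0504 without WT D5 p2 replicate 1 and 0.0974 without WT D5 p2 replicate 2. In WT pM limma and edgeR called only Neurog1, where 1.85% of genes were called higher, by 1.89 ± 0.45 (limma adjusted p = 0.0089), and without WT D5 pM replicate 2 its adjusted p was 0.221. Neurog3 in pM differed by 2.20 with a limma adjusted p of 0.058, which became 0.0398 without WT D7 pM replicate 2, and DESeq2 called it (0.0332). Whether the D7 minus D5 step differed among the domains was tested for each gene with a limma F test, in which 0.274% of all genes were called, and Gadd45g, Neurod1, Neurod4 and Insm1 passed. The calls of Neurod1 and Insm1 in that test ended without WT D5 pM replicate 2, with adjusted p of 0.0652 and 0.0595.

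The summed level of 11 markers of postmitotic neurons moved with these steps. In WT p1 it was 10404 to 23289 normalised counts at D7 against 1915 to 1983 at D5, in WT p2 16064 to 51579 at D7 against 3682 to 4044 at D5, and in WT pM 21655 to 32985 at D7 against 10482 to 13386 at D5. Its part in the changes of the 7 genes was not tested.

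The next step, from D7 to NFIAn cells at D9, again had most calls in p1, where 5 of the 7 genes were higher at D9 and 1.79% of all genes were called higher. Neurog2 in WT p1 was higher by 2.13 ± 0.34 (limma adjusted p = 4.9e-05) and Gadd45g by 1.19 ± 0.25 (limma adjusted p = 0.0019), and Gadd45g had 20119, 21046 and 22182 normalised counts at D9 against 8217, 9683 and 10026 at D7. Neurod4 was higher by 1.54 ± 0.36 (limma adjusted p = 0.0059, and 0.0592 without WT D9 p1 replicate 1). Insm1 was higher by 1.92 ± 0.49 (limma adjusted p = 0.015, and 0.0662 and 0.063 without WT D9 p1 replicates 1 and 3). Neurog1 was higher by 1.31 ± 0.40 with a limma adjusted p that rounds to 0.05, and that call ended without any 1 of the 6 libraries compared (adjusted p of 0.0564 to 0.177) and in edgeR (0.0786).

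In WT p2, 1 of 7 was called at this step, where 0.853% of genes were called higher. Insm1 had 817, 923 and 1060 normalised counts in NFIAn p2 cells at D9 against 180, 260 and 448 at D7, a difference of 1.75 ± 0.49 (limma adjusted p = 0.043), and the D9 group was the highest of all WT groups for Insm1 and overlapped no other. The call ended when any of 5 of the 6 libraries was left out, with adjusted p of 0.087 to 0.157, and in edgeR (0.0567), which called 0 of 7, while DESeq2 called 3 with Neurog3 (0.0341) and Gadd45g (0.028). In WT pM 0 of 7 were called by limma, edgeR or DESeq2, where 1.44% of genes were called and 2 of the 7 had an unadjusted p below 0.05. From NFIAn cells at D7 to NFIAp cells at D9, day and gate change together and cannot be told apart. Neurod1 in p2 was the single call there, where 1.47% of genes were called lower. It was lower, with 215, 235 and 288 normalised counts at D9 against 598, 607 and 723 at D7, a difference of -1.39 ± 0.34 (limma adjusted p = 0.01, and 0.0557 and 0.0651 without WT D7 p2 replicate 1 or WT D9 NFIAp p2 replicate 3). In pM 0 of 7 were called by limma, edgeR or DESeq2 (1 at an unadjusted p below 0.05), where 7.01% of genes were.

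Within D9, Gadd45g, Neurod4 and Neurog1 were lower in the NFIAp gate of p2 than in its NFIAn gate. In p2, 3 of 7 were called lower, where 0.0573% of all genes were called lower. Gadd45g had 4746, 7729 and 7737 normalised counts in NFIAp cells against 14442, 17035 and 21447 in NFIAn cells, a difference of -1.41 ± 0.25 (limma adjusted p = 0.0028). Neurod4 had 733, 1208 and 2164 in NFIAp cells against 3917, 3959 and 5253 in NFIAn cells, a difference of -1.80 ± 0.36 (limma adjusted p = 0.0065). Neither gene's libraries overlapped between the gates. The Neurod4 call ended without WT D9 NFIAp p2 replicate 3 (adjusted p = 0.165) or WT D9 NFIAn p2 replicate 2 (0.0736). Neurog1 differed by -1.75 ± 0.40 (limma adjusted p = 0.032), with 444 to 782 in NFIAp cells against 1507 to 2469 in NFIAn cells, and its call ended without any of 4 libraries (adjusted p of 0.123 to 0.217). In edgeR the call of Gadd45g held and those of Neurod4 (0.0571) and Neurog1 (0.09) did not. Without the 18 libraries of high total, which leaves 1 p2 library per gate, none of the 3 calls held.

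Neurog3 libraries overlapped between the gates of p2, with 267, 411 and 492 normalised counts in NFIAp p2 cells against 408, 442 and 459 in NFIAn p2 cells (difference -0.20 ± 0.60, limma adjusted p = 1.0). Neurog2 (-0.93 ± 0.34), Neurod1 (-1.14 ± 0.34) and Insm1 (-1.47 ± 0.49) had libraries that did not overlap between the p2 gates, as for 4.44% of all genes in this direction, and limma adjusted p of 0.36, 0.17 and 0.26. In pM all 7 differences were below 0, from -0.31 to -0.93, and 0 were called by limma, edgeR or DESeq2, with 1 at an unadjusted p below 0.05, where 0.0191% of genes were called. The postmitotic neuron markers summed to 21091 to 37203 in NFIAp p2 cells against 25028 to 39668 in NFIAn p2 cells, which overlap. Markers of mesenchyme, such as Col1a1 and Twist1, summed to 1626 to 3357 in NFIAp p2 cells against 223 to 248 in NFIAn p2 cells, and their part in the gate difference was not tested.

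From D9 to D11, within the gate available, 0 of 21 tests over 3 domains were called by limma, edgeR or DESeq2, with 3 at an unadjusted p below 0.05. Over all genes 3.32% were called in p1, 1.63% in p2 and 4.14% in pM. In p1 this step compared NFIAp cells at D11 with NFIAn cells at D9. Over the whole course, NFIAp cells at D11 against NFIAn cells at D5, day and gate change together. All 7 genes were higher at D11 in WT p1, where 14% of all genes were called higher. The differences ran from 2.48 ± 0.38 for Neurod1 at the low end to 5.27 ± 0.55 for Insm1 at the high end. In WT p2, where 14.2% were called higher, 4 of 7 were higher, led by Neurog3 at 5.62 ± 0.67 (limma adjusted p = 6.7e-09), with Neurog1 at 1.70 ± 0.45, Gadd45g at 1.04 ± 0.28 and Insm1 at 1.80 ± 0.55. The Insm1 call ended without WT D11 p2 replicate 2 (adjusted p = 0.14) or WT D5 p2 replicate 1 (0.0581). In WT pM, where 10.7% were called higher, Neurog3 alone was called, at 4.03 ± 0.73 (limma adjusted p = 4.5e-05). The limma F test of a difference among domains over D11 minus D5, in which 0.891% of genes were called, was passed by all genes but Neurog3 (limma adjusted p = 0.88).

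**Figure D3:**
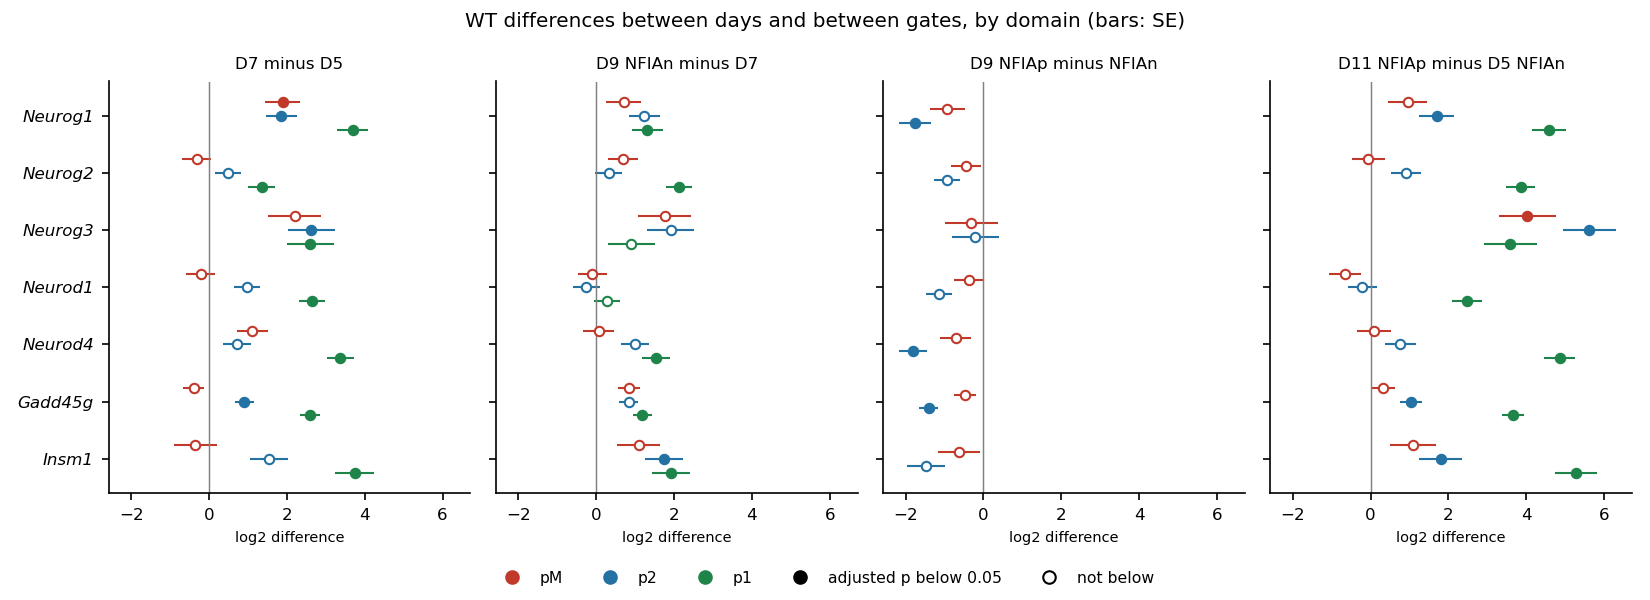
Log2 differences with SE for the 7 genes in WT pM, p2 and p1 between D7 and D5, between NFIAn cells at D9 and D7, between the NFIAp and NFIAn gates at D9, and between D11 and D5; filled points have an adjusted p below 0.05. All 7 genes are filled in p1 for D7 minus D5 and for D11 minus D5, whereas in pM Neurog1 alone is filled for D7 minus D5.

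Differences between the WT domains were concentrated at D5. Over all 13 domain comparisons, 25 of 91 tests of the 7 genes were called, 21 with the more ventral domain higher and 4 lower, where 0.919% of all tests over all genes were called. At D5, p2 exceeded p1 in 6 of 7 genes, where 0.305% of genes were called higher, by 1.64 ± 0.34 for Neurog2 up to 3.79 ± 0.49 for Insm1, and Neurog3 was the exception. The Neurog2 call ended without any of 4 libraries (adjusted p of 0.0643 to 0.198). Against p1, pM was higher in 5 of 7 genes, where 1.08% of genes were called higher, by 3.37 ± 0.28 for Gadd45g up to 4.80 ± 0.40 for Neurod4. Neurod4 had 2102 and 3815 normalised counts in pM, 961, 1345 and 1771 in p2, and 68.9, 96.9 and 151 in p1. The libraries of the 3 domains did not overlap, but limma did not call Neurod4 between pM and p2. The share of all genes so separated is not given here.

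Between pM and p2 at D5, 2 of 7 were called, where 0.204% of genes were called higher. Neurog2 was higher in pM by 2.27 ± 0.38 (limma adjusted p = 0.00094) and Gadd45g by 1.60 ± 0.28 (limma adjusted p = 0.0014), with 14299 and 17558 normalised counts of Gadd45g in pM against 4828, 5234 and 5652 in p2. Both calls ended without WT D5 pM replicate 3, with adjusted p of 0.0678 for Neurog2 and 0.095 for Gadd45g. The motor neuron markers Isl1, Mnx1, Lhx3, Slc18a3 and Chat summed to 1983 to 2022 in pM at D5 against 119 to 161 in p2, and their part in the difference was not tested.

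At D7 Neurog2 and Neurod4 were the 2 genes called in pM against each of the other domains, where 0.134% of genes were called higher against p2 and 0.745% against p1. Neurod4 had 4824, 6731 and 7062 normalised counts in pM, 1787, 2317 and 2507 in p2, and 894, 901 and 1443 in p1. Neurog2 was higher in pM than p1 by 2.24 ± 0.34 (limma adjusted p = 2.8e-05) and than p2 by 1.47 ± 0.34 (limma adjusted p = 0.027). In the comparison with p2 edgeR called 0 of 7 (adjusted p of 0.0942 for Neurog2 and 0.0587 for Neurod4), while DESeq2 called 3, the third being Insm1 (0.00944). Without the 18 libraries of high total neither call held (0.315 for Neurog2 and 0.203 for Neurod4). That of Neurog2 ended without any of 4 libraries (adjusted p of 0.0765 to 0.356) and that of Neurod4 (1.49 ± 0.36, limma adjusted p = 0.034) without any of the 6 (0.0694 to 0.236). Between p2 and p1 at D7, 0 of 7 were called by limma or edgeR and 1 by DESeq2, with 4 at an unadjusted p below 0.05, where 0.115% of genes were called.

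At D9 Neurog2 was called between pM and p2 in both gates. In NFIAp cells, 3 of 7 genes were higher in pM than p2, where 0.248% of genes were called higher, namely Neurog2 by 2.32 ± 0.34 (limma adjusted p = 1.8e-05), Neurod4 by 1.66 ± 0.36 (limma adjusted p = 0.0058) and Gadd45g by 1.25 ± 0.25 (limma adjusted p = 0.0021). The Neurod4 call ended without WT D9 NFIAp pM replicate 2 (adjusted p = 0.1) or p2 replicate 3 (0.132), and that of Gadd45g without p2 replicate 1 (0.0588). DESeq2 added Insm1 (0.0224). In NFIAn cells, where 1.41% of genes were called, Neurog2 was higher in pM than p2 by 1.83 ± 0.38 (limma adjusted p = 0.0034), while Neurog1 (-1.83 ± 0.45, limma adjusted p = 0.019) and Insm1 (-2.36 ± 0.55, limma adjusted p = 0.011) were lower. Insm1 had 173 and 187 normalised counts in NFIAn pM cells against 817, 923 and 1060 in NFIAn p2 cells. Each of these NFIAn calls ended without either pM library (adjusted p of 0.0517 to 0.274), those of Neurog1 and Insm1 also without p2 replicate 2 (0.115 and 0.0571), and that of Neurog1 without p2 replicate 3 (0.059) and in edgeR (0.0605). For pM against p1 and p2 against p1 in NFIAn cells at D9, 0 of 7 were called by limma or edgeR, where 1.58% and 0.751% of genes were, with 3 and 2 at an unadjusted p below 0.05 and 1 and 0 called by DESeq2.

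At D11 Neurog1 was the single gene called by limma between WT domains. It was lower in pM than p1 (-2.70 ± 0.49, limma adjusted p = 0.00043), where 1.24% of genes were called lower, and lower in pM than p2 (-2.08 ± 0.49, limma adjusted p = 0.035), where 0.293% were. Without WT D11 pM replicate 2 the adjusted p was 0.0888 against p1, and the call against p2 ended without that library (1.0) or without either p2 library (0.262 and 0.184) and in edgeR (0.166). Between p2 and p1 at D11, 0 of 7 were called by limma, edgeR or DESeq2, with 2 at an unadjusted p below 0.05, where 0.598% of genes were called. Without the 18 libraries of high total Neurog2 was called there (0.0484).

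**Figure D4:**
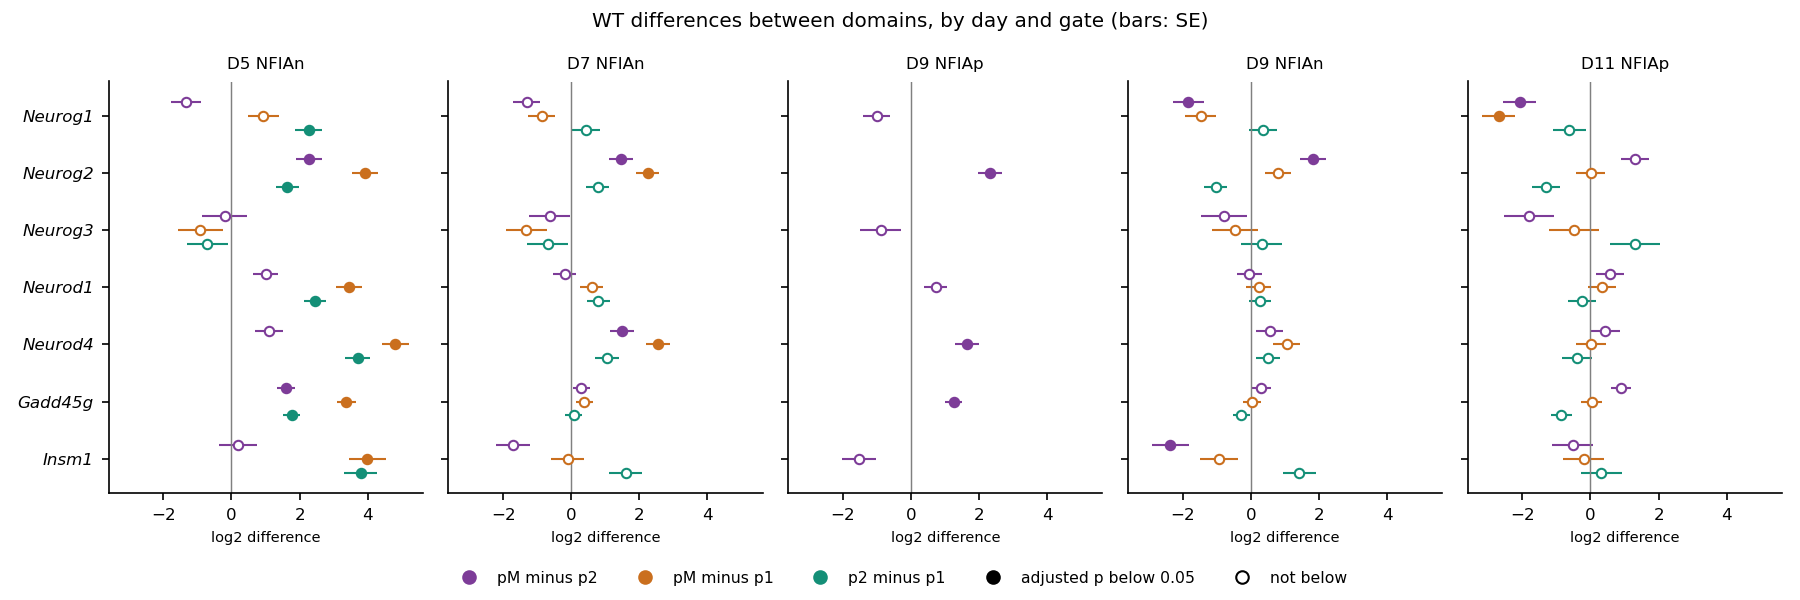
Log2 differences with SE for the 7 genes between WT pM and p2, pM and p1, and p2 and p1, by day and gate; filled points have an adjusted p below 0.05. Neurog2 is filled for pM minus p2 at D5, D7 and both D9 gates, with differences of 1.47 to 2.32, and Neurog1 lies below 0 in all 5 pM minus p2 comparisons.

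Ranked over the 14 WT groups, the mean level spanned 124.3-fold for Insm1, 60.7-fold for Neurod4, 52.4-fold for Neurog3, 41.6-fold for Neurog1, 17.7-fold for Neurog2, 14.1-fold for Gadd45g and 10.8-fold for Neurod1. Most steps in these orders were within the spread of libraries. Of the 13 neighbouring pairs of groups, the libraries were apart in 3 for Neurog1, Neurog3 and Insm1, in 2 for Neurog2 and Gadd45g, and in 1 for Neurod1 and Neurod4. For Neurog1, Neurod1, Neurod4, Gadd45g and Insm1 the separated step at the bottom set D5 p1 below every other group. For Neurog2 the separated steps set the p2 groups with D5 and D7 p1 below D9 p1, and NFIAn pM cells at D9 (6668 and 6856) above D5 pM (4812 and 5684). Neurod1 was the flattest of the genes after D5, with WT group means between 245.8 normalised counts in NFIAp p2 cells at D9 and 642.6 in p2 at D7, and 660.8 in pM at D5.

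In MUT cells 12 of the 14 calls between days fell at D7 minus D5. Over D7 minus D5, 6 of 7 genes were higher in MUT p1 (Neurog2 being the exception), 5 in p2 and Neurog1 alone in pM, where 3.54%, 4.02% and 3.43% of genes were called higher. Leaving out 1 library ended the calls of Neurog3 in p1 (3 libraries, adjusted p of 0.0869 to 0.217), Neurod4 in p2 (5 libraries, 0.0639 to 0.23), Gadd45g in p2 (2 libraries, 0.0892 to 0.205) and Neurog1 in pM (5 libraries, 0.054 to 0.131), and edgeR did not call Neurod4 in p2 (0.0882). In MUT p1 Neurod4 had 891, 1157 and 1315 normalised counts at D7 against 40.1, 47.3 and 58.9 at D5, a difference of 4.49 ± 0.36 (limma adjusted p = 2.4e-13). At D9 minus D7 in MUT p1, where 0.916% of genes were called higher, Neurog2 (1.67 ± 0.38, limma adjusted p = 0.012) and Gadd45g (1.27 ± 0.28, limma adjusted p = 0.0071) were higher. The Neurog2 call ended without MUT D7 p1 replicate 3 (adjusted p = 0.126) or MUT D9 p1 replicate 1 (0.352), and that of Gadd45g without either D9 library (0.06 and 0.162). Over the 9 MUT day steps together 14 of 63 tests were called, all higher, where 1.57% of all tests were called higher.

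Between MUT domains 20 of 84 tests were called, all higher, where 0.415% of all tests were called higher, with 16 at D5 and 4 at D7. At D5 edgeR did not call Neurod1 in pM against p2 (0.0505) or Neurog2 in p2 against p1 (0.0727). At D9 limma, edgeR and DESeq2 called 0, with 7 at an unadjusted p below 0.05. At D11 limma and edgeR called 0, with 4 at an unadjusted p below 0.05, and DESeq2 called Neurog2 in pM against p1 (0.0288) and in p2 against p1 (0.0419). Neurog2 was also called at D11 in pM against p1 with a pseudocount of 8 (0.0422), and without the 18 libraries of high total in pM against p1 (0.0116) and in p2 against p1 (0.0281). The D9 comparisons with p2 rest on 1 MUT p2 library, which the fit assumes to vary like the other groups. At D5 Neurod4 was higher in MUT pM than p1 by 6.53 ± 0.36 (limma adjusted p = 4.9e-19), with 3125, 5297 and 5652 normalised counts in pM against 40.1, 47.3 and 58.9 in p1. At D7 Neurog2 and Neurod4 were called higher in pM than in p2 and than in p1. The log2 ratio of Neurog1 to Neurog2 in MUT differed between p2 and pM by 2.63 at D5, 3.22 at D7, 1.62 at D9 and 0.96 at D11, without overlap of libraries on any day. These are given with no test.

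MUT and WT could be compared in the same gate at D5, D7 and D9. There 0 of 63 tests of the 7 genes were called by limma, edgeR or DESeq2, with 7 at an unadjusted p below 0.05, where 0.053% of all tests were called. At D11, MUT NFIAn against WT NFIAp cells, 0 of 21 were called by limma or edgeR and 2 by DESeq2, with 4 at an unadjusted p below 0.05, where 0.653% of all tests were called and 1.43% of those in pM. The lowest adjusted p-values were in pM. Neurog1 had 449 and 779 normalised counts in MUT pM against 112 and 265 in WT pM (1.77 ± 0.49, limma adjusted p = 0.052), and the adjusted p was 0.0235 without WT D11 pM replicate 3. Neurog2 had 1560 and 2285 in MUT pM against 4288 and 5906 in WT pM (-1.41 ± 0.42, limma adjusted p = 0.079). Neither gene's libraries overlapped between the genotypes, as was so for 36.2% of all genes in this comparison.

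The neurogenin shares of pM at D11, computed from these same counts and so not a separate observation, differed in the same direction. Neurog2 made up 47.5% and 67.8% in MUT pM against 88.7% and 90.4% in WT pM, and Neurog1 17.6% and 31.3% in MUT pM against 3.13% and 5.25% in WT pM. Gadd45g had 8597 and 12690 normalised counts in MUT pM against 18997 and 20949 in WT pM (-0.93 ± 0.30, limma adjusted p = 0.13). In p2 at D11 the widest difference was that of Neurog3, with 291 and 350 in MUT against 812 and 1055 in WT (-1.53 ± 0.73, limma adjusted p = 0.78). Genotype and gate cannot be told apart at D11. Motor neuron markers summed to 9456 to 10209 in MUT pM against 3443 to 3827 in WT pM, and the pM progenitor genes to 1406 to 2542 in MUT pM against 4957 to 9239 in WT pM, and their part in these values was not tested. For a difference between genotypes in the D11 minus D7 change, 0 of 21 tests were called by limma, edgeR or DESeq2, with 2 at an unadjusted p below 0.05, where 0.123% of all tests were called.

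**Figure D5:**
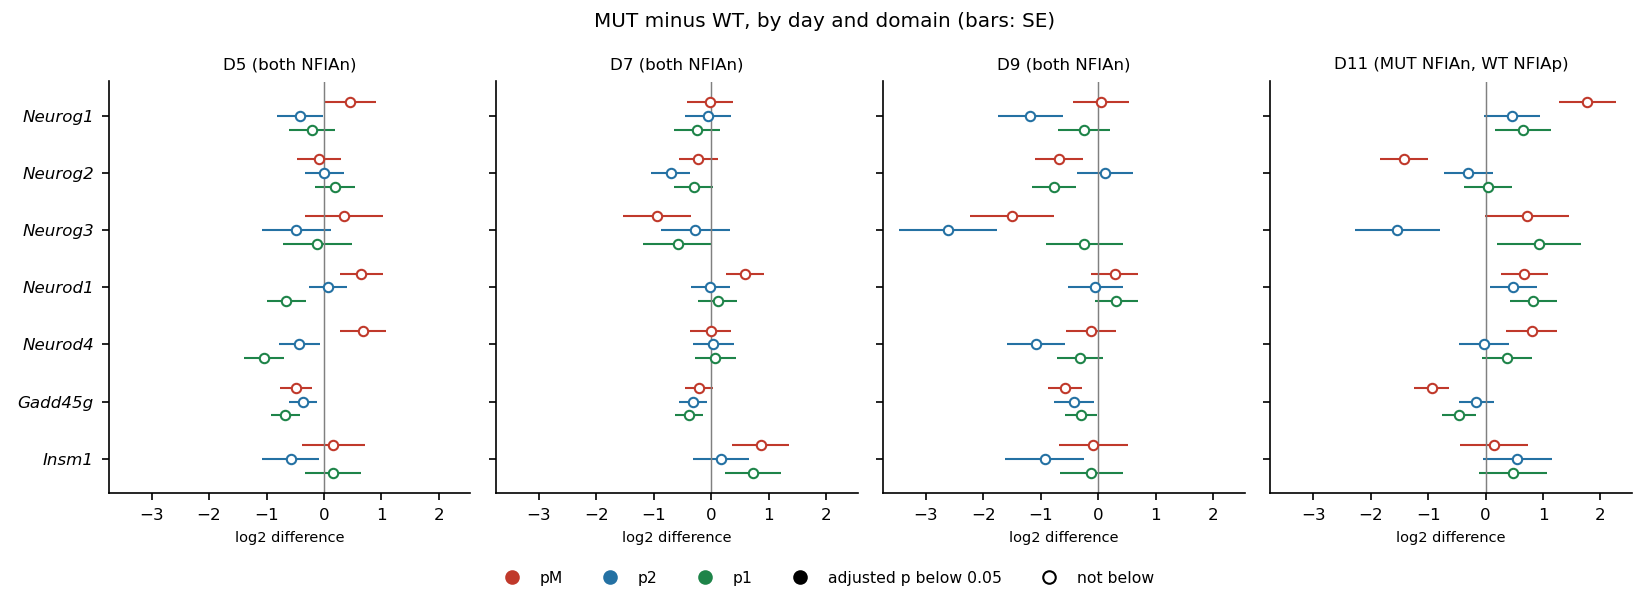
Log2 differences of MUT minus WT with SE for the 7 genes in pM, p2 and p1 at D5, D7, D9 and D11; at D11 the MUT cells are NFIAn and the WT cells NFIAp. No point has an adjusted p below 0.05, and the widest D11 differences in pM are Neurog1 at 1.77 and Neurog2 at -1.41.

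Genes described as neurogenin targets or partners, a list of 24 all of which were tested, were called higher at D7 than at D5 in numbers that differed by domain. In WT p1 13 were higher and 0 lower, with a median log2 difference of 1.46, in WT p2 12 and 0 with a median of 1.32, and in WT pM 1 and 0 with a median of 0.21, against a median of 0.00 over all genes. Of all genes 3.4% were called higher in p1, 3.6% in p2 and 1.85% in pM. Among those called in both p1 and p2 were Hes6, an inhibitor of Hes1 (1.80 ± 0.27 in p1 and 2.18 ± 0.27 in p2), and Dll3, a divergent Notch ligand (2.48 in p1 and 2.26 in p2). Nhlh1, a bHLH factor of newborn neurons, was called in p1 (4.53 ± 0.48), and Srrm4, a neuronal splicing regulator, likewise (3.51 ± 0.41). From D7 to NFIAn cells at D9, 8 of the list were higher in p1, 4 in p2 and 1 in pM, with 0 lower, where 1.79%, 0.853% and 0.566% of all genes were called higher. Across the D9 gate 0 of 24 were called in p2 by limma and 0 in pM. Of all genes 0.0573% were called lower in p2 and 0.0191% were called in pM. The list median was -0.66 in p2 and 0.03 in pM, beside 0.00 and 0.03 over all genes.

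Of 11 genes of Notch signalling and its Hes effectors, 1 was called higher at D7 than at D5 in p1, Notch1 at 1.14, and 0 in p2 or pM by limma. Of all genes 3.4% were called higher in p1, 3.6% in p2 and 1.85% in pM. Of 8 other members of the Gadd45 family and the p53 response, 0 were called between D7 and D5 in any domain by limma, and 3 were lower in NFIAn p1 cells at D9 than at D7 (Sesn2, Cdkn1a and Ccng1), where 2.3% of all genes were called lower, with a list median of -0.63 beside a median of 0.00 over all genes.

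Over the 26 group means, the genes with patterns most like the members, among 12072 compared, included other members. Neurod4 was closest to Srrm4 (Pearson r = 0.976) and Nhlh1 (0.969), and then to Elavl3 (0.937), an RNA-binding protein of neurons. Neurod1 was closest to Srrm4 (0.928), Neurod4 (0.919) and Nhlh1 (0.91). Gadd45g was closest to Rhbdl3 (0.949), Prmt8 (0.927) and Miat (0.922), Insm1 to Igfbpl1 (0.909), Miat (0.904) and Dcx (0.899), and Neurog1 to Ackr3 (0.902), Stmn1 (0.894) and Dcx (0.894). Neurog2 was closest to Tbc1d9 (0.865), Trp53i11 (0.859) and Numbl (0.855), and Neurog3 to Nat14 (0.93), Smim18 (0.924) and Cyp4v3 (0.924). Among the members themselves r was 0.901 for Gadd45g with Neurod4, 0.866 for Insm1 with Neurog1, 0.847 for Gadd45g with Neurog2, 0.754 for Neurog3 with Neurog1 and 0.298 for Neurog2 with Neurog1. These correlations are descriptions over groups that share days and domains.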

How the data were processed

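The table covers polyA RNA of 66 libraries in 26 groups. Its signal is a normalised count, in which the authors divided the reads of each gene by a size factor of the library. Build mm10 and DESeq2 are named in the submitters' processing notes, with no version given in the sources used here. Dividing each value by what 1 read is worth gave whole reads within 0.01 for 100% of values, which served edgeR and DESeq2 as alternatives. Of 55 replicate pairs 0 held identical values, and every library was kept.

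The 7 members and the gene lists were chosen with earlier results of these data known. All 7 members are named whatever their values. Listed genes are given by counts, with up to 4 per list named for their role or, where a count is small, after their values were seen. For each member the 3 genes of highest Pearson correlation over group means are named, among genes with a mean of at least 50 in a group.

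The test was limma (trended prior variance) on log2 of the normalised count plus 1, with all 26 groups in 1 fit and genes kept at 10 or more in 2 or more libraries. Differences on that scale understate the changes of low genes. Two-sided p-values received Benjamini-Hochberg adjustment across the 15714 genes tested, and a call is an adjusted p below 0.05. A limma F test asked whether a change in time differed among domains. Comparisons that use the same group share its libraries. The fit takes libraries as independent, although those with the same replicate number on a day were more alike than others. Levels between genes are per exonic kilobase of GENCODE M21, and promoters are from RefSeq on GRCm38.p6, found for 6 of the 7 members (not Insm1).

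Alternatives tried were DESeq2 and edgeR on whole reads, TMM scaling, omitting the filter, raising the pseudocount to 8, fitting only the compared groups, the replicate number as a block, correlated libraries, each library left out, and a repeat without the 18 libraries of high total. The limma fit was also run on simulated counts drawn independently for each library, which cannot show the effect of correlation between libraries. Version numbers are 3.58.1 for limma, 1.42.0 for DESeq2, 4.0.16 for edgeR, 4.3.3 for R, 3.11.15 for Python and 3.10.9 for matplotlib.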

Additional observations from a re-analysis of the deposited data

Results flagged for a closer look

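A different change among the WT domains, tested with a limma F test, singled out the following results. Between D7 and D5 the change differed among pM, p2 and p1 for Gadd45g (limma adjusted p = 6.3e-06), Neurod1 (limma adjusted p = 0.0038), Neurod4 (limma adjusted p = 0.0045) and Insm1 (limma adjusted p = 0.0046). For Gadd45g the D7 minus D5 difference was -0.39 in pM, 0.90 in p2 and 2.60 in p1.

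Between D11 and D5 the change differed among the domains for Neurod4 (limma adjusted p = 1.8e-07), Gadd45g (limma adjusted p = 3.4e-07), Neurog2 (limma adjusted p = 1.6e-05), Neurod1 (limma adjusted p = 0.00034), Neurog1 (limma adjusted p = 0.00087) and Insm1 (limma adjusted p = 0.0016). For Neurog2 the D11 minus D5 difference was -0.06 in pM, 0.91 in p2 and 3.85 in p1. The D11 cells were NFIAp and the D5 cells NFIAn, so day and gate cannot be told apart in this change.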

How the results depend on the processing

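No called difference of the 7 genes turned its direction under any alternative run. With only the compared groups in the fit, which leaves fewer residual degrees of freedom, calls numbered 3 (of 11) for WT D7 minus D5, 0 (of 6) for NFIAn D9 minus D7, 0 (of 1) for NFIAp D9 minus D7, 0 (of 3) for the gate, 3 (of 25) between WT domains, 4 (of 14) for MUT steps, 5 (of 20) between MUT domains and 1 (of 4) for the D7 minus D5 F test. The repeat without 18 libraries gave 2 for NFIAn D9 minus D7, 0 for NFIAp D9 minus D7, 0 for the gate and 2 for that F test. For the gate edgeR gave 1. For MUT minus WT at D11, with 0 calls in the fit reported, a pseudocount of 8 gave 1, no filter 1, DESeq2 2 and the repeat without 18 libraries 2. The cause was not tested.

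Leaving out 1 library gave 10 to 12 calls for WT D7 minus D5, 3 to 8 for NFIAn D9 minus D7, 0 to 1 for NFIAp D9 minus D7, 1 to 3 for the gate, 11 to 12 for D11 minus D5, 22 to 25 between WT domains, 12 to 15 for MUT steps, 17 to 21 between MUT domains, 0 to 1 for MUT minus WT at D11, 2 to 4 and 6 to 6 for the F tests, and 0 to 0 elsewhere.

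Replicate numbers were not taken as pairs in the fit reported. A correlation of deviations over 0.1 was found in 21 of 40 same-numbered pairs of libraries at D5 and 42 of 45 at D7. At D9 it was found in 33 of 48 such pairs and at D11 in 24 of 30. Among pairs with different numbers it was found in 0 of 80 at D5, 21 of 90 at D7, 12 of 90 at D9 and 0 of 30 at D11. Each D11 group has 2 libraries, whose deviations from their group mean are equal and opposite. The D11 values of different-numbered pairs are therefore those of same-numbered pairs with the sign reversed, and are not separate evidence. Same-numbered libraries were thus more alike on each day, which the p-values of the fit reported do not allow for. The fit with correlated libraries used an estimated correlation of 0.375. With the replicate number as a block, calls were 12 for WT D7 minus D5, 8 for NFIAn D9 minus D7, 1 for NFIAp D9 minus D7, 3 for the gate, 25 between WT domains, 21 between MUT domains and 1 for MUT minus WT at D11. A block within each day gave 5 for the gate, 35 between WT domains, 26 between MUT domains and 3 for MUT minus WT at D11, and correlated libraries gave 5, 35, 27 and 0. At D11 in WT, the block within each day called Neurog2 and Gadd45g in pM against p2 (adjusted p of 0.0174 and 0.0227) and in p2 against p1 (0.0108 and 0.0187), which the fit reported did not call, and so did correlated libraries (0.0239 and 0.0328, and 0.0159 and 0.0278). In MUT at D11, Neurog2 in pM against p1 was called with the replicate block (0.0488), the block within each day (0.00162) and correlated libraries (0.00264). In WT p2 between D7 and D5, the replicate block called Insm1 (0.0314). Paired p2 and pM libraries differed by 3.30 in the Neurog1 to Neurog2 ratio, above 0 in 12 of 12 pairs (exact sign-flip p = 0.000488).

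Counts over all genes moved by more than 1.5 times as follows. WT D7 minus D5 had 2068 calls, and 266 with only the compared groups. NFIAn D9 minus D7 had 1223, against 452 without 18 libraries and 85 with the compared groups, and NFIAp D9 minus D7 had 1601, against 941 and 196. The gate had 42, against 68 with no filter, 65 with the block, 378 with the block within each day, 368 with correlated libraries, 7 without 18 libraries, 12 with the compared groups, 12 in edgeR and 95 in DESeq2. D11 minus D9 had 1429, against 2376 with the block, 480 without 18 libraries, 210 with the compared groups and 845 in edgeR. WT domains had 1877, against 5869 with the block within each day, 5804 with correlated libraries, 178 with the compared groups and 1158 in edgeR. MUT steps had 3542, and 788 with the compared groups, and MUT domains had 1511, against 5418, 4957, 647 and 991 under the settings listed for WT domains. MUT minus WT had 75 before D11, against 304 with no filter, 1302 with the block within each day, 202 with the compared groups, 40 in edgeR and 174 in DESeq2. At D11 it had 308, against 479 with a pseudocount of 8, 685 with no filter, 3597 with the block within each day, 665 without 18 libraries, 0 with the compared groups, 126 in edgeR and 517 in DESeq2. The genotype difference in D11 minus D7 had 58, against 124 with a pseudocount of 8, 117 with no filter, 94 with the block, 23 with the compared groups, 24 in edgeR and 137 in DESeq2. The F tests had 43 for D7 minus D5, against 145 with correlated libraries and 22 with the compared groups, and 140 for D11 minus D5, against 234 with a pseudocount of 8, 463 with correlated libraries, 252 without 18 libraries and 90 with the compared groups.

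The repeat without 18 libraries, and leaving out the only MUT D9 p2 library, gave no value where that group was compared, and DESeq2 was not run for the F tests. Counting error limits the lowest values most, such as those of Insm1 in p1 and of Neurog3 in every domain at D5.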
